A study of Mus musculus with 6 samples.

Results

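The fibrinogen subunit genes Fga, Fgb and Fgg, 3 of the 20443 genes in the tables, were followed in sorted medullary thymic epithelial cells (mTECs). They were chosen by symbol, with the difference between the groups already known. The values of these genes in that contrast are therefore given as a description, and nothing is concluded from their p-values. RNA sequencing had been done on 3 libraries from Jmjd3fl/fl-Foxn1-cre mice (cKO_262, cKO_263 and cKO_265, Jmjd3-deficient) and 3 libraries from Jmjd3fl/fl mice (Con_253, Con_261 and Con_264, control), all on C57BL/6 and 4 weeks of age. Both groups carried the floxed Jmjd3 alleles. Foxn1-cre is active in the epithelium of the thymus, cortex and medulla alike, and the control mice carried no Cre, so Cre itself and the loss of Jmjd3 cannot be told apart. Jmjd3 is the histone H3 lysine 27 demethylase with the gene symbol Kdm6b, and the study asked whether it is needed for tissue-restricted antigens in mTECs. All values are the authors' FPKM, in which the fragments of a gene are divided by its length and by the mapped fragments of the library. The read depth is unknown, because the tables hold no counts.

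Fibrinogen is the soluble precursor of the fibrin clot. It is a dimer of units that each join an alpha chain (Fga), a beta chain (Fgb) and a gamma chain (Fgg), and hepatocytes are its main source. Thrombin cuts short peptides from the alpha and beta chains so that fibrin can polymerize, while the gamma chain carries sites for crosslinking by factor XIII and for binding by integrins of platelets and leukocytes. In hepatocytes the 3 genes are transcribed together under liver-enriched factors such as those of the C/EBP family, and rise together in the acute phase through interleukin 6 and STAT3. mTECs transcribe many genes of peripheral organs, the liver among them, and present the products to developing T cells.

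The 3 genes form a cluster of 41.9 kb on chromosome 3 of the mouse build mm10. In the deposited coordinates, with 1 base added to each start, Fgg lies at chr3:83007896-83015049, Fga at chr3:83026153-83033617 and Fgb at chr3:83042305-83049790. Fgg and Fga are transcribed on the plus strand and Fgb on the minus strand, and all 3 are protein coding in GENCODE M21. That annotation gives Fgg 2 transcripts of 10 and 9 exons, Fga 2 transcripts of 5 and 6 exons, and Fgb 1 transcript of 8 exons. A long noncoding RNA gene on the minus strand, Gm30097 (chr3:82926665-83008488), overlaps the first exons of Fgg with its span. Strand was not stated for the reads, so any reads of it there cannot be told apart from those of Fgg.

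The 250 bases before the RefSeq start of each gene (GRCm38.p6, 5′ to 3′ on the gene's own strand) are shown because the 3 genes are known to share liver and acute-phase control. The capitals mark CTGGGA, the core of interleukin 6 response elements described in rat and human fibrinogen genes, and matches of the C/EBP-type motif TTGCNNAA on either strand.
Fgg, chr3:83007474-83007723, plus strand: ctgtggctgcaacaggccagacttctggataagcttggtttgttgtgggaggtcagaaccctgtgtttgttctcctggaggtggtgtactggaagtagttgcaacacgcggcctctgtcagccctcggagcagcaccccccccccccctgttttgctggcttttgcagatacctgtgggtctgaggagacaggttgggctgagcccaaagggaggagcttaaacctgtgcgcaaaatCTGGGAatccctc
Fgb, chr3:83049864-83050113, minus strand: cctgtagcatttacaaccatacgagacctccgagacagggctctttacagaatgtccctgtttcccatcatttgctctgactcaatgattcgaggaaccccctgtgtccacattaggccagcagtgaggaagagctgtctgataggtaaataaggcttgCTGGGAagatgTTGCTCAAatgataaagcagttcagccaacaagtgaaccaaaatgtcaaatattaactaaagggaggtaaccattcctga
Fga, chr3:83025903-83026152, plus strand: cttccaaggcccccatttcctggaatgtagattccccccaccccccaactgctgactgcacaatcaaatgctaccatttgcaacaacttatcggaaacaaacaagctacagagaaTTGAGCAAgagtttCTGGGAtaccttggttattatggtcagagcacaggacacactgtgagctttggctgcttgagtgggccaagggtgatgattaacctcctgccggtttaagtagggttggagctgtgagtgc

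Each of these windows held CTGGGA once, with its first base at position -13 for Fgg, -91 for Fgb and -121 for Fga, where -1 is the base before the start. TTGCNNAA was matched once in Fgb (from -80) and once in Fga (from -135) and was not in the Fgg window, and TATAAA and CCAAT were in 0 of the 3. Both strands were searched, and the motif matches in these windows do not overlap. Among 32851 RefSeq windows of the same length, 27.0% held CTGGGA, 9.56% TTGCNNAA and 2.38% both, and 12.4% held TATAAA and 33.8% CCAAT. The RefSeq start is that of the deposited Fga locus, but lies 172 bases upstream of the deposited start of Fgg and 73 bases upstream of that of Fgb, so these windows may not be the ones used in mTECs.

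Before the members, the libraries were compared as a whole. The summed FPKM was 582835 to 641060 in the cKO libraries and 461152 to 543156 in the Con libraries. On the first principal component of the 15720 tested genes, which held 42.8% of the variance, cKO_265 stood farthest out at 53.0, with cKO_262 at -6.74 and cKO_263 at 7.42, against -22.7, -21.1 and -9.87 for Con_253, Con_261 and Con_264. Con_253 alone expressed Y-linked genes, with 4 of them summing to 12.6 FPKM there and to at most 0.110 FPKM in each other library, so sex seemed to differ between libraries and was not balanced over the groups. The targeted gene Kdm6b averaged 10.5 ± 1.58 FPKM in cKO and 15.05 ± 4.40 FPKM in Con (SD, n = 3 each; log2 difference -0.45, limma adjusted p = 0.418), a value over all exons that does not check the deletion. The 10 mTEC markers (among them Epcam, Krt5, Krt14, Cd80, Aire and Fezf2) were detected in both groups and summed to 7880 to 9448 FPKM in cKO and 7760 to 8937 FPKM in Con. The largest part of these sums was H2-Aa, at 3621 to 4468 FPKM in cKO and 3938 to 4441 FPKM in Con. The log2 differences of the 10 ran from -0.68 (Cldn3) to 0.40 (Aire), and 0 changed (limma).

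All 3 fibrinogen genes had higher mean levels in the Jmjd3-deficient mTECs, the gamma chain gene most of all. Fgg was at 61.6, 97.2 and 143 FPKM in libraries cKO_262, cKO_263 and cKO_265, against 17.6, 29.2 and 40.9 FPKM in Con_253, Con_261 and Con_264. Each cKO library lay above each Con library. The mean of Fgg was 101 ± 40.7 FPKM in cKO and 29.2 ± 11.7 FPKM in Con (SD, n = 3 each), a ratio of 3.44, and the difference on the log2(FPKM + 1) scale was 1.74 (SE 0.35). In sorted cells measured in bulk, a change in the number of cells that make a transcript and a change in the transcript per cell cannot be told apart.

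Fgb, the beta chain gene, was at 24.7, 37.6 and 40.8 FPKM in libraries cKO_262, cKO_263 and cKO_265, against 12.6, 18.3 and 27.0 FPKM in Con_253, Con_261 and Con_264. The groups overlapped, because Con_264 lay above cKO_262. The mean of Fgb was 34.3 ± 8.54 FPKM in cKO and 19.3 ± 7.23 FPKM in Con (SD, n = 3 each), a ratio of 1.78 and a log2 difference of 0.83 (SE 0.28).

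Fga, the alpha chain gene, was at 15.8, 20.1 and 18.3 FPKM in libraries cKO_262, cKO_263 and cKO_265, against 7.87, 10.1 and 13.1 FPKM in Con_253, Con_261 and Con_264. The groups did not overlap. The mean of Fga was 18.1 ± 2.14 FPKM in cKO and 10.4 ± 2.64 FPKM in Con (SD, n = 3 each), a ratio of 1.74 and a log2 difference of 0.77 (SE 0.20).

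**Figure D1:**
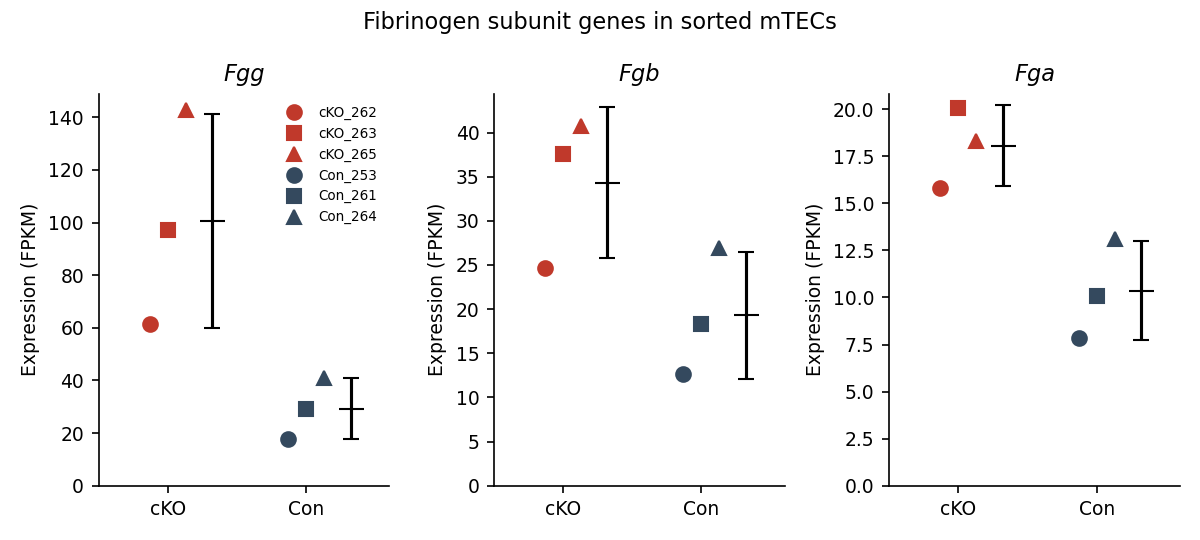
Expression of Fgg, Fgb and Fga in FPKM (vertical axes from 0, each with its own range) in 3 cKO and 3 Con libraries. Points are libraries, and the bar to the right of each group is the mean ± SD. The 3 cKO libraries lie above all Con libraries for Fgg (61.6 to 143 against 17.6 to 40.9 FPKM) and Fga (15.8 to 20.1 against 7.87 to 13.1 FPKM) and overlap with them for Fgb.

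All 3 genes passed the filter on low values, which asked for 0.5 FPKM or more on average. At an adjusted p under 0.05 (limma), 0 of the 3 passed, beside 0.0763% of all tested genes, and 3 of 3 had higher values at an unadjusted p under 0.05, beside 6.81% of all. The groups did not overlap for 2 of the 3, beside 9.59% of all genes that were so placed on the higher side. Nothing is read from these counts, since the genes were picked with this contrast in view. The median log2 difference of the 3 genes was 0.83, and that of all 15720 tested genes was -0.04. By the size of the difference Fgg stood at place 8 from the top among the tested genes, Fgb at place 171 and Fga at place 242.

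Within each group the 3 genes also differed from library to library in a partly similar way. Con_253 was the lowest and Con_264 the highest control for each of the 3 genes, and cKO_262 was the lowest deficient library for each. The highest deficient library was cKO_265 for Fgg and Fgb but cKO_263 for Fga. The highest over the lowest library came to 2.32 in cKO and 2.33 in Con for Fgg, 1.65 in cKO and 2.14 in Con for Fgb, and 1.27 in cKO and 1.67 in Con for Fga. The order of the 6 libraries by Fgg was the same as that by the first principal component over all genes, with cKO_265 highest and Con_253 lowest in both. The part of that axis in the fibrinogen values was not tested. Without both Con_253 and cKO_265, the log2 difference was 1.14 for Fgg, 0.44 for Fgb and 0.59 for Fga.

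The levels of the 3 genes, which are comparable in FPKM because it is per length, kept the order Fgg, Fgb, Fga in all 6 libraries. In cKO the ranges of neighbours in that order did not overlap (61.6 to 143, 24.7 to 40.8 and 15.8 to 20.1 FPKM). In Con they did, with 17.6 to 40.9 FPKM for Fgg, 12.6 to 27.0 for Fgb and 7.87 to 13.1 for Fga. In the cKO means Fgg was higher than 94.4% of tested genes, Fgb than 84.3% and Fga than 73.3%. In the Con means the shares were 82.7% for Fgg, 75.1% for Fgb and 60.6% for Fga. The level of a gene in FPKM depends on the transcript length the authors' annotation gave it, and that annotation was not named.

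The make-up of the fibrinogen signal differed between the groups. Fgg made up 60.3%, 62.8% and 70.7% of the summed FPKM of the 3 genes in cKO_262, cKO_263 and cKO_265, against 46.2%, 50.7% and 50.5% in Con_253, Con_261 and Con_264. The mean share of Fgg was 64.6 ± 5.43% in cKO and 49.1 ± 2.55% in Con (SD, n = 3 each). Each cKO library was above each Con library. The share of Fgb was 22.9 ± 2.32% in cKO and 32.7 ± 0.832% in Con, and that of Fga 12.5 ± 3.24% in cKO and 18.1 ± 2.30% in Con, with no overlap for either. The 3 shares add up to the whole, so Fgb and Fga together must fall where Fgg rises. Such shares do not depend on how the libraries are scaled to each other.

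The ratios within a library are made from the same values, so they restate this shift and add no support to it. The ratio of Fgg to Fgb was 2.497, 2.586 and 3.501 in cKO_262, cKO_263 and cKO_265, against 1.394, 1.596 and 1.516 in Con_253, Con_261 and Con_264. That of Fgg to Fga was 3.89, 4.84 and 7.79 in the cKO libraries, against 2.23, 2.90 and 3.11 in the Con libraries. Neither ratio overlapped between the groups. The ratio of Fgb to Fga, by contrast, was 1.559, 1.872 and 2.226 in cKO, against 1.602, 1.817 and 2.054 in Con, and here the groups overlapped. The mean ratio of Fgb to Fga was 1.89 ± 0.334 in cKO and 1.82 ± 0.226 in Con (SD, n = 3 each), a difference smaller than the spread between replicates.

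**Figure D2:**
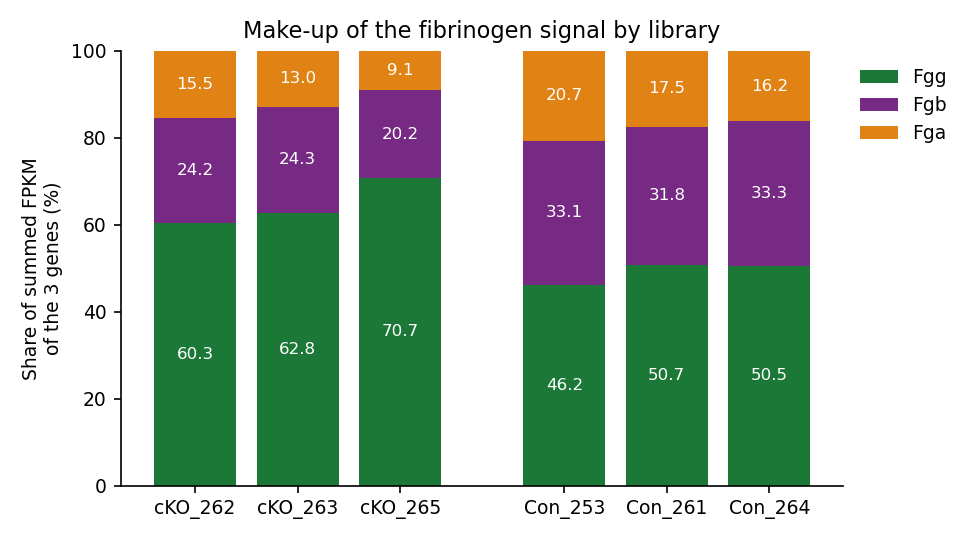
Share of each gene in the summed FPKM of Fgg, Fgb and Fga (percent, stacked from 0 to 100) for 3 cKO and 3 Con libraries. Fgg takes 60.3% to 70.7% in the cKO libraries and 46.2% to 50.7% in the Con libraries.

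Fga was the 1 member with 2 rows in the tables, both at the same locus and both with the status OK. Its higher row was at 12.8, 15.1 and 14.7 FPKM in libraries cKO_262, cKO_263 and cKO_265, against 5.71, 6.97 and 10.1 FPKM in Con_253, Con_261 and Con_264, with no overlap. Its lower row was at 3.07, 4.998 and 3.63 FPKM in the cKO libraries, against 2.16, 3.10 and 3.08 FPKM in the Con libraries, and here cKO_262 lay below 2 of the controls. The ratio of means was 1.87 for the higher row and 1.40 for the lower one. The higher row held 78.6 ± 3.06% of the Fga signal in cKO and 72.8 ± 3.69% in Con (SD, n = 3 each), with overlap. Fga is known to give a common alpha chain and a longer form by splicing to a further exon, but the tables do not say which row is which transcript.

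The neighbours of the cluster were read next, since position played no part in the choice of the members. Within 500 kb on either side the tables held 4 other genes, 2 of which reached the filter, and 0 of these 2 changed (limma), nor did either have an unadjusted p under 0.05. Plrg1, a spliceosome component gene 5.75 kb beyond Fgb, was at 15.5, 20.2 and 18.9 FPKM in libraries cKO_262, cKO_263 and cKO_265, against 19.7, 17.8 and 20.8 FPKM in Con_253, Con_261 and Con_264 (log2 difference -0.09, SE 0.15, limma adjusted p = 0.825). Its groups overlapped. Lrat, the retinol esterification enzyme gene 64.3 kb before Fgg, was at 3.28, 3.99 and 3.55 FPKM in the cKO libraries, against 1.35, 2.62 and 3.26 FPKM in the Con libraries (log2 difference 0.47, SE 0.24, limma adjusted p = 0.402). Its groups did not overlap, although cKO_262 and Con_264 were 3.28 and 3.26 FPKM. Rbm46, which encodes an RNA-binding protein of germ cells, and Npy2r, a neuropeptide Y receptor gene, stayed at or below 0.352 FPKM in each library and were not tested.

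**Figure D3:**
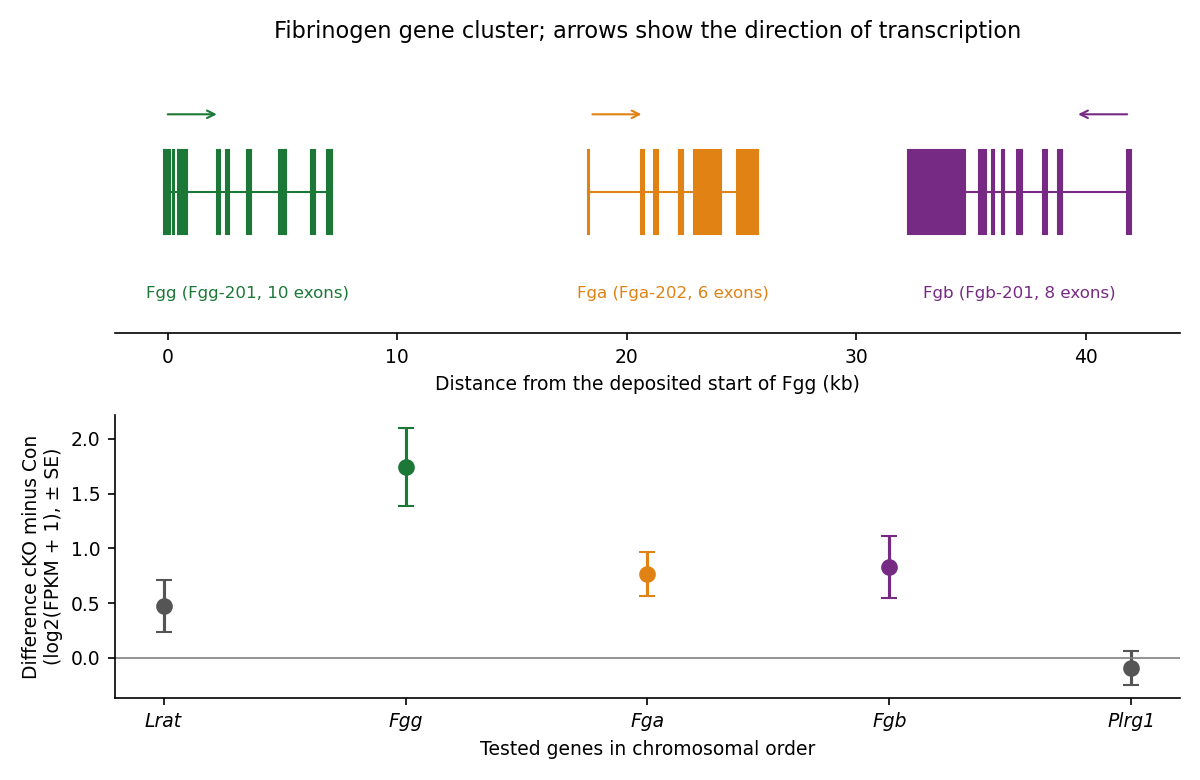
Above, the exons of 1 GENCODE M21 transcript of each fibrinogen gene against the distance from the deposited start of Fgg in kb. Below, the difference cKO minus Con on the log2(FPKM + 1) scale with its SE for the 3 genes and both tested neighbours in chromosomal order: 0.47 for Lrat, 1.74 for Fgg, 0.77 for Fga, 0.83 for Fgb and -0.09 for Plrg1.

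Genes of roles around fibrinogen were taken as 10 lists with 153 genes, of which 140 reached the filter. Of these, 0 changed (limma), against 0.0763% of all tested genes. At an unadjusted p under 0.05, 11 were higher and 18 lower in cKO, 7.86% and 12.9% of the 140, beside 6.81% higher and 7.82% lower over all tested genes. Values were higher for 56 of the 140 genes and lower for 84, while 45.3% of all tested genes had higher and 54.7% lower values, and the median log2 difference of the 140 was -0.11. None of the 140 had a difference as large as that of Fgg in either direction, and 3 had a positive one above those of Fgb and Fga.

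Among the genes that turn fibrinogen into fibrin and crosslink it, 13 of 16 were tested and 0 changed. Their median was 0.08. The prothrombin gene F2 was at 8.56, 7.92 and 9.23 FPKM in libraries cKO_262, cKO_263 and cKO_265, against 7.84, 6.29 and 4.45 FPKM in Con_253, Con_261 and Con_264 (log2 difference 0.44, limma adjusted p = 0.367). Its groups did not overlap, but the lowest cKO value and the highest Con value were nearly equal. Tfpi, an inhibitor of the tissue factor pathway, averaged 23.0 ± 4.09 FPKM in cKO and 14.6 ± 2.81 FPKM in Con (log2 difference 0.63, limma adjusted p = 0.204). F13a1, the catalytic chain of factor XIII, averaged 5.03 ± 1.12 FPKM in cKO and 4.14 ± 0.704 FPKM in Con, and F7 was at a log2 difference of -0.41 (limma adjusted p from 0.490 to 0.649 for both).

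The inhibitors of thrombin and the protein C system went both ways, with 8 of 9 genes tested, 0 changed and a median of -0.12. Serpine2, a thrombin and protease inhibitor, averaged 52.2 ± 14.6 FPKM in cKO and 31.4 ± 4.17 FPKM in Con (log2 difference 0.69, limma adjusted p = 0.213). The antithrombin gene Serpinc1 was at a log2 difference of 0.62 and the protein C gene Proc at -0.91 (limma adjusted p = 0.398 and 0.165).

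Genes of fibrinolysis, the dissolving of fibrin by plasmin, also held values in both directions, with 9 of 11 tested, 0 changed and a median of -0.08. Serpinb2, a plasminogen activator inhibitor, was at 45.8, 53.0 and 69.6 FPKM in libraries cKO_262, cKO_263 and cKO_265, against 79.7, 108 and 138 FPKM in Con_253, Con_261 and Con_264 (log2 difference -0.92, limma adjusted p = 0.152). Its groups did not overlap, and it passed when the libraries were rescaled to the same summed FPKM (-1.23). That rescaling was chosen after seeing the data and put the median of all genes at -0.30. Anxa2, which binds plasminogen and its activator at the cell surface, averaged 1437 ± 234 FPKM in cKO and 1028 ± 40.2 FPKM in Con (log2 difference 0.47, limma adjusted p = 0.242). The log2 difference was -0.52 for the urokinase gene Plau and 0.40 for the tissue plasminogen activator gene Plat (limma adjusted p = 0.267 and 0.334). The plasminogen gene Plg stayed at or below 1.72 FPKM in each library.

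Of the receptors that bind fibrinogen 9 of 10 were tested and 0 changed, with a median of -0.20. Itgb2, the beta chain of leukocyte integrins, averaged 2.05 ± 0.349 FPKM in cKO and 3.96 ± 0.986 FPKM in Con (log2 difference -0.69, limma adjusted p = 0.192). Itgav, the alpha chain of vitronectin-type integrins, was at 0.54 and the endothelial cadherin gene Cdh5 at -0.30. Relatives that share the fibrinogen domain were tested for 16 of 19 genes, and 0 changed, with a median of -0.05. Angptl7 was at 0.54, Angptl4, an inhibitor of lipoprotein lipase, at -0.85 and Fibcd1 at -0.45 (limma adjusted p from 0.223 to 0.269).

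The liver transcription factors, several of which act on fibrinogen promoters in hepatocytes, had lower values for 10 of 12 tested genes. Of all tested genes, 54.7% had lower values. In this list 0 changed and the median was -0.32. Cebpa averaged 27.7 ± 9.36 FPKM in cKO and 44.2 ± 9.83 FPKM in Con, and Cebpb 22.4 ± 10.4 FPKM in cKO and 34.7 ± 15.1 FPKM in Con (log2 differences -0.69 and -0.62, limma adjusted p = 0.299 and 0.541). In both groups the library with the highest Fgg (cKO_265 and Con_264) had the lowest Cebpa and Cebpb. This pattern was picked after the values were seen. The same libraries stood highest of their group on the first principal component (53.0 and -9.87), and a link to Fgg was not tested. The log2 difference was -0.06 for Hnf4a, -0.74 for Foxa3, -0.50 for Cebpd and 0.67 for the bile acid receptor gene Nr1h4 (limma adjusted p from 0.251 to 0.920).

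For interleukin 6 and glucocorticoid signalling, all 16 genes were tested, 0 changed and the median was -0.11. Stat3, which carries the interleukin 6 signal to acute-phase genes, was at 200.6, 183 and 179 FPKM in libraries cKO_262, cKO_263 and cKO_265, against 155, 165 and 152 FPKM in Con_253, Con_261 and Con_264 (log2 difference 0.25, limma adjusted p = 0.395). The interleukin 6 receptor genes Il6ra and Il6st were at 0.05 and -0.24, the oncostatin M receptor gene Osmr at -0.55, the leukaemia inhibitory factor receptor gene Lifr at -0.43 and the oncostatin M gene Osm at -0.59 (limma adjusted p from 0.223 to 0.941).

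Genes of other acute-phase proteins, which hepatocytes secrete along with fibrinogen, had values on both sides. Of 19 tested genes, 7 had higher and 12 lower values, 0 changed, and the median was -0.35. At an unadjusted p under 0.05 (limma), 4 were higher and 5 lower, beside 6.81% higher and 7.82% lower over all tested genes. Orm2, an orosomucoid gene whose close relatives leave its value uncertain, was at 18.3, 20.7 and 35.2 FPKM in libraries cKO_262, cKO_263 and cKO_265, against 12.3, 9.48 and 11.2 FPKM in Con_253, Con_261 and Con_264 (log2 difference 1.05, limma adjusted p = 0.132). Its groups did not overlap. Saa1, a serum amyloid A gene with a near copy in Saa2, was at 35.6, 57.6 and 50.5 FPKM in the cKO libraries, against 70.7, 127 and 98.1 FPKM in the Con libraries (log2 difference -1.01, limma adjusted p = 0.149). It too passed when the libraries were rescaled to the same summed FPKM (-1.32), where the median of all genes was -0.30. Lbp, the lipopolysaccharide-binding protein gene, was at -0.73 (limma adjusted p = 0.152). The 3 genes with a difference above that of Fgb were in this list, namely Hamp at 1.12, Orm2 at 1.05 and Mt2 at 0.88, and Hamp and Mt2 are named after their values were seen.

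Chaperones and export factors, which fold secreted proteins such as fibrinogen and carry them from the endoplasmic reticulum, had 17 of 17 genes tested, 0 changed and a median of 0.06. The chaperone genes Calr and Dnajb9 were at -0.26 and -0.33 and the coat protein gene Sec24d at -0.33 (limma adjusted p from 0.364 to 0.436). The range of this list, from -0.33 to 0.30, was narrower than that of the acute-phase list, from -1.01 to 1.12.

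**Figure D4:**
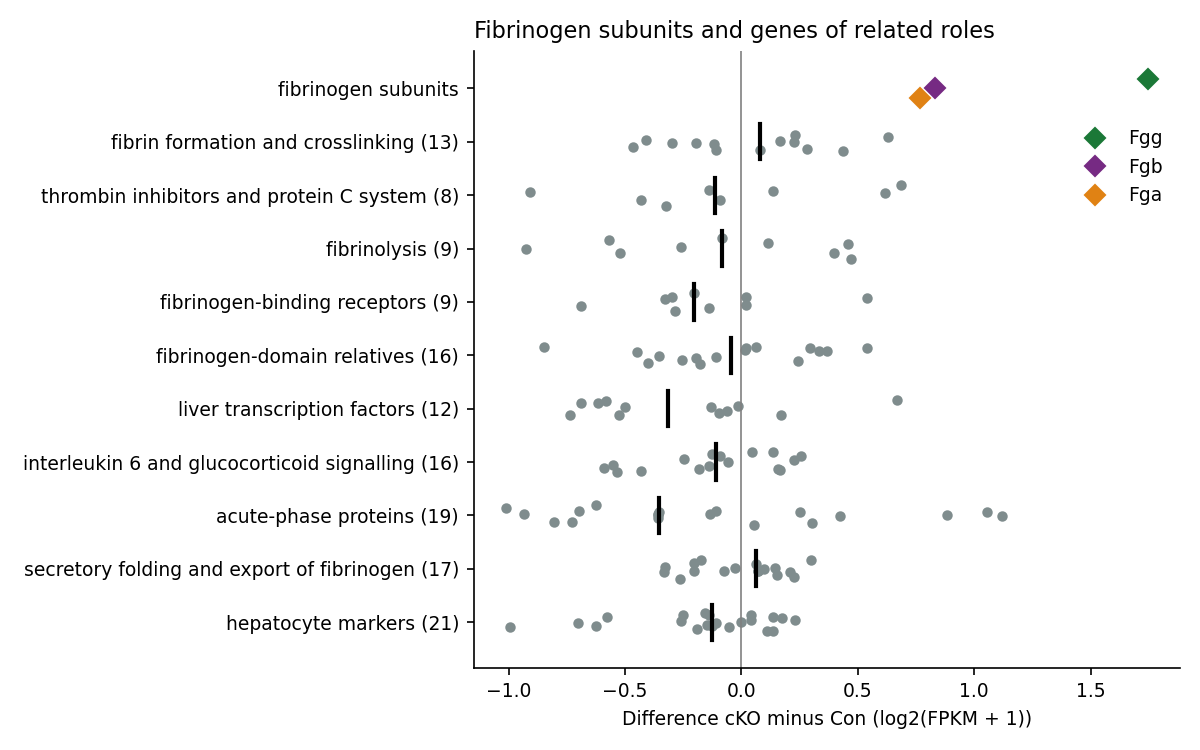
Difference cKO minus Con on the log2(FPKM + 1) scale for the fibrinogen subunit genes (coloured diamonds) and for the tested genes of 10 lists (grey points, number of tested genes in brackets). Black bars are list medians, which lie between -0.35 and 0.08, while the diamonds lie at 0.77, 0.83 and 1.74.

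Markers of hepatocytes, the main source of fibrinogen in the body, had values on both sides. Of 22 genes 21 were tested, 7 with higher and 14 with lower values, 0 changed, and the median was -0.13. Over all tested genes, 45.3% had higher and 54.7% lower values. At an unadjusted p under 0.05 (limma), 0 of the list were higher and 2 lower, beside 6.81% and 7.82% of all tested genes. The list summed to 281 to 361 FPKM in the cKO libraries and 336 to 402 FPKM in the Con libraries, with overlap. The albumin gene Alb was at 4.77, 5.21 and 14.2 FPKM in libraries cKO_262, cKO_263 and cKO_265, against 9.84, 10.4 and 13.6 FPKM in Con_253, Con_261 and Con_264 (log2 difference -0.58, limma adjusted p = 0.489). The vitamin D-binding protein gene Gc was at -0.70, the tyrosine aminotransferase gene Tat at -0.62 and the retinol-binding protein gene Rbp4 at -0.995 (limma adjusted p from 0.230 to 0.360).

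Of the other cells a sort could hold, the megakaryocyte and platelet markers, Pf4 the highest, summed to 16.7 to 24.0 FPKM in cKO and 12.7 to 23.6 FPKM in Con, with 7 of 8 tested and 0 changed. Macrophage and dendritic cell markers summed to 333 to 368 FPKM in cKO and 414 to 458 FPKM in Con, thymocyte markers to 27.1 to 34.1 FPKM in cKO and 37.9 to 64.6 FPKM in Con, and endothelial markers to 4.77 to 5.27 FPKM in cKO and 7.17 to 7.52 FPKM in Con. The sums of these 3 lists were lower in every cKO library than in any Con library. Over all tested genes, 11.9% were so placed on the lower side. Of the 7 tested thymocyte markers, 5 were lower at an unadjusted p under 0.05 (limma), beside 7.82% of all tested genes. Only Cd3d of the 7 had a higher value in cKO (log2 difference 0.10). Lyz2 made up most of the macrophage and dendritic cell sum, at 242 to 275 FPKM in cKO and 324 to 362 FPKM in Con. For Csf1r, Cd68 and Cd14 of that list the groups overlapped. B cell markers summed to 40.03 to 55.9 FPKM in cKO and 38.3 to 50.7 FPKM in Con, fibroblast markers to 22.3 to 28.7 FPKM in cKO and 25.5 to 33.0 FPKM in Con, and cortical epithelial markers to 578 to 797 FPKM in cKO and 628 to 683 FPKM in Con. In each of these lists 0 genes changed (limma) and 0 markers were listed at 0 in all 6 libraries. The part of such cells in the fibrinogen values was not tested.

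The genes whose pattern over the 6 libraries was most like the mean of the 3 members were found by the root mean square distance between centred log2(FPKM + 1) values, among 8625 genes that averaged 5 FPKM or more. They were Gpihbp1, which anchors lipoprotein lipase on capillaries (0.20), Clec12a, a C-type lectin receptor of myeloid cells (0.21), Slc51b, a subunit of a bile acid exporter (0.22), Mbl2, a mannose-binding lectin made by the liver (0.24), and Rnf113a1, a RING finger gene (0.25). Fgb lay at 0.15, Fga at 0.24 and Fgg at 0.36 from the same mean, to which they themselves contribute. Gpihbp1 was at 10.5, 14.8 and 21.2 FPKM in libraries cKO_262, cKO_263 and cKO_265, against 3.73, 7.21 and 6.68 FPKM in Con_253, Con_261 and Con_264. Mbl2 was at 12.7, 20.98 and 22.3 FPKM in the cKO libraries, against 8.22, 11.02 and 11.1 FPKM in the Con libraries. All 5 had their lowest value in Con_253, as the fibrinogen genes did. With 6 libraries and this many genes close profiles are easily found, and the distances are a description.

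**Figure D5:**
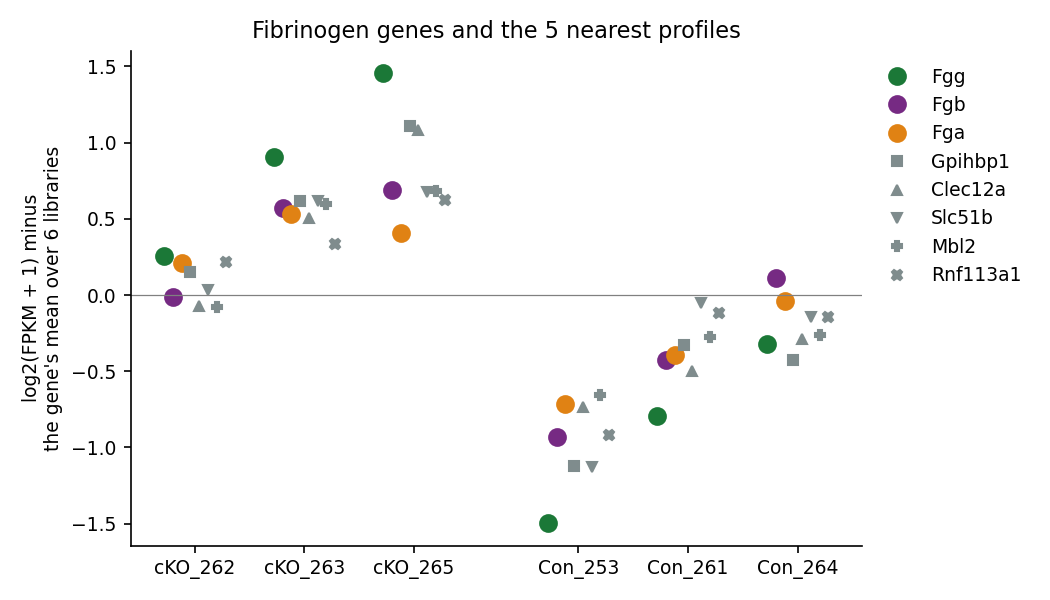
Log2(FPKM + 1) minus each gene's mean over the 6 libraries for Fgg, Fgb and Fga (coloured circles) and the 5 genes of nearest profile (grey symbols), by library, with 3 cKO libraries on the left and 3 Con libraries on the right. Points are shifted sideways for legibility. Fgg spans the widest range, and for all 8 genes Con_253 is the lowest library.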

How the data were processed

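For each library the authors deposited a table of FPKM, made with Bowtie2 2.2.5, Cufflinks and build mm10 per the submitters' processing notes. The annotation, the strand and the scaling of libraries to each other are not given in the sources used here. Per the labels' protocols, a single-cell kit for whole transcriptomes amplified the cDNA, which can favour some transcripts over others. Rows of a symbol were summed, and 44 rows of 25 symbols turned into dates were left out. The 15720 genes that averaged 0.5 FPKM or more were fitted as log2(FPKM + 1) by limma 3.58.1 under R 4.3.3 (eBayes with trend, 2-sided, Benjamini-Hochberg over all tested genes, threshold 0.05). The added 1 understates changes of low genes. The fit was also run on simulated data with equal, independent noise for all genes and planted changes larger than those of the fibrinogen genes. That run does not show which changes the fit can find in these libraries. The labels number the libraries but do not say that each came from 1 mouse, so p-values measure the spread between these samples. The members and lists were chosen with earlier results of these data known. Named in each list are genes past the threshold, otherwise the 3 with the smallest unadjusted p, and a fixed set of regulators and clotting genes, apart from some not reported here. Alternatives were another pseudocount, filters, scalings, no trend, the highest row of a symbol and left-out libraries. Sequences are from RefSeq (GRCm38.p6), in which all 3 symbols matched.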

Additional observations from a re-analysis of the deposited data

How the results depend on the processing

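The differences of Fga, Fgb and Fgg stayed positive under all 15 alternatives, from 0.50 to 0.94 for Fga, 0.44 to 1.09 for Fgb and 1.14 to 2.05 for Fgg on the log2 scale. That of Fgg moved by more than the spread between replicates in 1 of them, to 1.14 without both Con_253 and cKO_265. With 1 library left out it was 1.43 to 2.05 for Fgg, 0.57 to 1.09 for Fgb and 0.60 to 0.94 for Fga, lowest without Con_253 for each. The excess of the Fgg share in cKO, 15.5 percentage points, was 12.4 to 17.6 with 1 library left out. It was not recomputed without both Con_253 and cKO_265. The libraries that remain there had the closer shares, 60.3% and 62.8% in cKO_262 and cKO_263 against 50.7% and 50.5% in Con_261 and Con_264. Rescaling the libraries to the same summed FPKM, an alternative chosen after seeing the data, put the median of all genes at -0.30, Fgg at 1.46, Fgb at 0.55 and Fga at 0.50, and the groups of Fga then overlapped. It gave 207 changed genes, 10 higher and 197 lower, in place of 12, 3 higher and 9 lower, and 2 changed genes of the pathway lists in place of 0, Saa1 and Serpinb2, both lower; the cause was not tested. The number of changed genes was 2 to 23 with 1 library left out, 2 without each single Con library, 23 without cKO_262 and 19 without cKO_265. No neighbouring gene changed under any of the 15 alternatives. No paired analysis was made, because the labels do not state which cKO and Con libraries, if any, belong together. Depth is unknown, so counting error cannot be given.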
